A study of Mus musculus with 12 samples.

Results

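Polycomb repressive complex 1 (PRC1) was followed through 9 of its genes, out of 55335 gene identifiers counted in both tables of the series: Phc1, Phc2, Phc3, Ring1, Rnf2, Bmi1, Cbx2, Cbx7 and Cbx8. All 9 were found by symbol in both tables, and the 8 genes other than Phc3 passed the filter on low counts in every comparison they were tested in. The set was chosen by the counts of Phc3, which were higher in every midostaurin-treated cell library and split in the tumors. Its values in cells and tumors are therefore given as a description with no test, and tests are given for the other 8 genes. RNA was sequenced from CT26, a mouse colorectal cancer line labelled as WT in genotype, and from subcutaneous tumors of the same line in mice. Cultured CT26 cells received the solvent DMSO or 1 µM midostaurin for 48 h, and tumors received vehicle or midostaurin at 40 mg/kg, given for 2 weeks from day 7 after inoculation. Midostaurin is a multikinase inhibitor whose targets include FLT3, KIT and protein kinase C. Each of the 4 groups holds 3 libraries. Strain, sex and age of the host mice are not stated in the labels used here, and nothing ties the libraries of a group to separate cultures or mice. The p-values therefore measure the spread between these libraries, which may be technical. The cells are a single line, and the tumors are bulk tissue that also holds host cells.

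PRC1 is an E3 ligase that attaches ubiquitin to histone H2A and helps keep developmental genes silent. Its core pairs a RING subunit (Ring1 or Rnf2) with a PCGF subunit such as Bmi1. In canonical PRC1 this core is joined by a CBX protein, which reads the histone H3 lysine methylation laid down by Polycomb repressive complex 2 (PRC2), and by a PHC protein, whose SAM domain can polymerise and cluster Polycomb-bound chromatin. Phc1, Phc2 and Phc3 encode the paralogous PHC subunits. In tumors, BMI1 is best known for repression of the Cdkn2a locus.

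The promoters are shown for Phc3, the gene the set was chosen for, and for the members that hold the same short motif. Sequences are from RefSeq on GRCm38.p6 and run 5′ to 3′ on the strand of the gene. Of the 9 genes, 8 matched the promoter table, with 10 promoters between them, and Cbx2 did not match. The 250 bases before the start of Phc3 lie at chr3:30969416-30969665, with the gene on the minus strand. Capitals mark the E-box CACGTG, a palindrome bound by MYC and other bHLH proteins, which lies 82 to 77 bases before the start.
Phc3: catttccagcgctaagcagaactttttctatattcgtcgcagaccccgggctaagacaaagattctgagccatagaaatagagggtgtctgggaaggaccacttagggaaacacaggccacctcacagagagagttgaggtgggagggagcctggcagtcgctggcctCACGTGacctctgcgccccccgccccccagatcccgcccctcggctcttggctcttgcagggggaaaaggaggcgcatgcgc
The letters CACGTG, which read the same on both strands, were present in 4 of the 10 member promoters, and in 6.04% of all 32536 promoters of the same length. They were searched for after the promoters had been read, so the match is a description of these sequences only. The other matches are shown as 40-base windows, at chr2:18676786-18676825 for Bmi1 (plus strand), chr4:128654628-128654667 for Phc2 (plus strand) and chr11:119040989-119041028 for Cbx8 (minus strand).
Bmi1: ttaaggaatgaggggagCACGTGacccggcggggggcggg
Phc2: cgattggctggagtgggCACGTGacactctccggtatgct
Cbx8: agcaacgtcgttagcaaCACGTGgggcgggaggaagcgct
The E-box lies 215 to 210 bases before the start in Bmi1, 57 to 52 in Phc2 and 98 to 93 in Cbx8. The E2F motif TTCCCGC, searched on both strands, was in 0 of the 10 member promoters and in 3.84% of all promoters.

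Total counts ran from 34787389 to 38144039 in cell libraries and from 33399701 to 48109497 in tumor libraries. The cell libraries numbered 1 stood apart from the other cell libraries in both groups: across genes, their deviations from the group mean correlated at 0.814 with each other and at -0.64 to -0.62 with those of other numbers. Of the epithelial markers, Krt18 had 821 to 1147 counts per cell library and the intestinal factor Cdx2 33 to 82, while Epcam had 0 in all 6. The 10 immune markers together reached 4.48 to 27.1 CPM in cells and 228 to 972 CPM in tumors, and the 6 stromal and endothelial markers 15.7 to 59.3 and 138 to 352 CPM. CPM is the count relative to the library's total after TMM scaling, which evens out library composition.

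The largest relative range among the members was that of Phc3. In cultured cells it had 684, 698 and 705 counts in the DMSO libraries numbered 1, 2 and 3, and 2338, 2523 and 2669 counts in the midostaurin libraries of the same numbers. Scaled, these are 17.3, 19.0 and 20.1 CPM with DMSO and 60.3, 68.9 and 73.8 CPM with midostaurin. The groups did not overlap, the trait for which Phc3 was chosen, as for 2.46% of all genes. The treated libraries stood at 3.49, 3.63 and 3.68 times the control of their own number. The group means were 18.8 ± 1.40 and 67.7 ± 6.80 CPM (SD, n = 3 each), a ratio of 3.60 or 1.85 on the log2 scale. Without any 1 of the 6 cell libraries this log2 ratio stayed between 1.78 and 1.93. As Phc3 was chosen on these same values, that range only describes them. The libraries numbered 1, which stood apart across genes, held the lowest Phc3 value of each group and a ratio close to the other pairs.

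In tumors Phc3 had high and low libraries in both groups. Vehicle tumors 1, 2 and 3 had 1331, 281 and 1477 counts (33.7, 7.58 and 34.2 CPM), and the midostaurin tumors numbered 2, 3 and 4 had 1459, 223 and 182 counts (37.1, 6.92 and 3.87 CPM). Vehicle tumors 1 and 3 and midostaurin tumor 2 were high, and vehicle tumor 2 and midostaurin tumors 3 and 4 were low. The lowest of the 3 high tumors was 4.45 times the highest of the 3 low ones, and the extremes differed by 9.60 times. Group means were 25.2 ± 15.2 CPM with vehicle and 16.0 ± 18.4 CPM with midostaurin (SD, n = 3 each), a ratio of 0.635 and a difference smaller than the SD of either group. The 3 high tumors lay above all DMSO cell libraries and below all treated ones, and the 3 low tumors lay below every cell library. In bulk tumors, fewer cells of a type and less RNA per cell cannot be told apart.

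Markers of other cell types varied between the same tumors. The immune markers summed to 600, 490 and 228 CPM in the tumors with high Phc3 and to 422, 972 and 358 CPM in those with low Phc3, so the ranges overlapped. The stromal and endothelial markers summed to 252, 138 and 172 CPM and to 180, 352 and 276 CPM, which also overlap. Within that list the stromal gene Lum, singled out after its values were seen, was lower in every tumor with high Phc3. It did not follow the order of Phc3 inside the high or the low tumors, and each other gene of the list overlapped. Lum was at 6.29, 0.648 and 0.89 CPM in the tumors with high Phc3 and at 10.1, 11.8 and 10.1 CPM in those with low Phc3. The skin keratins Krt5 and Krt14 had 5666 and 18626 counts in vehicle tumor 2, a low tumor, and at most 3 and 6 counts in the other tumors. The neutrophil gene S100a9 had 11893 counts in midostaurin tumor 3, another low tumor, and 48 to 412 in the others. The part of host cells in the Phc3 split was not tested beyond these values.

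**Figure D1:**
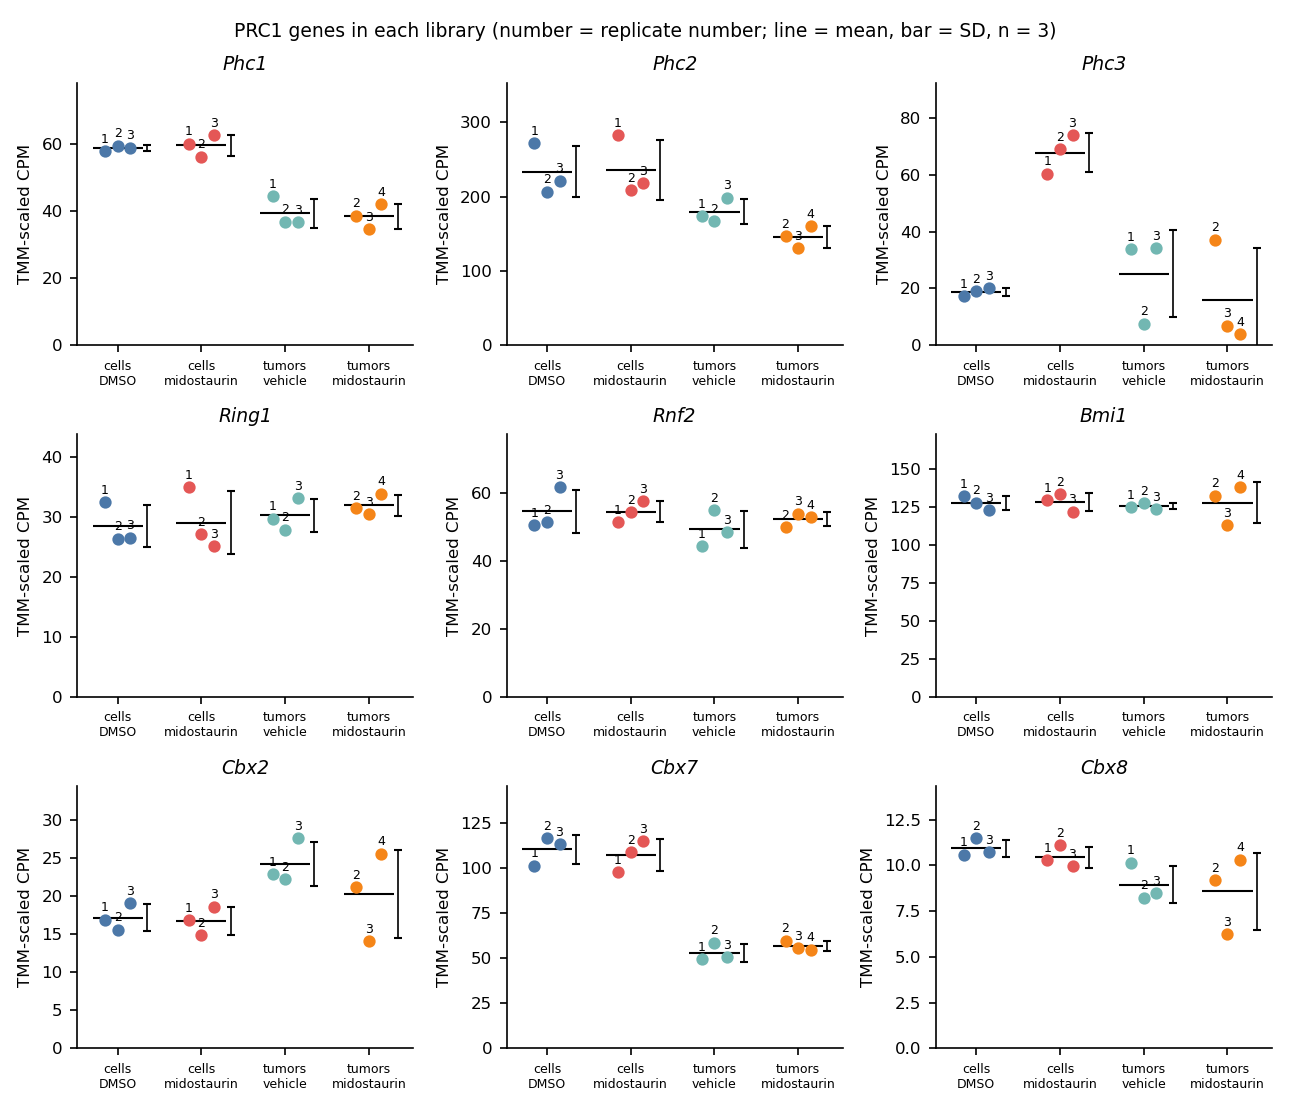
TMM-scaled CPM (vertical axis, from 0, scale differing between panels) of the 9 PRC1 genes in the 12 libraries, by group; points are libraries with their numbers, the line is the mean and the bar the SD (n = 3), which for Phc3 in treated tumors extends below 0 and is clipped there. Phc3 separates the cell groups (17.3 to 20.1 against 60.3 to 73.8 CPM) and splits the tumors, Phc1 and Cbx7 are lower in tumors than in cells, and in Phc2 the tumor groups do not overlap.

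The counts of Phc3 were examined for overlap with other genes, since the counting could share reads between them. Phc3 (ENSMUSG00000037652) spans chr3:30899371-30969415 of GRCm38 on the minus strand. In the GENCODE M21 annotation no gene shares exon bases with it on its strand. None of the 17742 distinct 50-base words of its transcripts occurred in a transcript of another gene on the same strand. The 1 other model inside the gene, 9530022L04Rik, had 0 counts in every library. Within 100 kb the expressed neighbours did not follow Phc3: Sec62, a part of the protein translocation machinery, had 4497 to 4915 counts in cells, and Prkci, which encodes an atypical protein kinase C, had 2247 and 2126 counts in DMSO libraries 2 and 3 and 2246 and 2382 in midostaurin libraries 2 and 3. Prkci was at 4899 and 5179 counts in the cell libraries numbered 1, and was 1605 to 2353 across the 6 tumors. Sec62 had 3536 to 4993 counts in tumors. Gpr160, the nearest protein-coding gene, had at most 3 counts in cells. It had 44, 77 and 45 counts in vehicle tumors and 18, 46 and 30 in midostaurin tumors. These checks were chosen after the values of Phc3 had been seen.

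The paralogs of Phc3 carried most of the PHC RNA. Phc2 had 272, 206 and 221 CPM in DMSO cells and 282, 208 and 218 CPM in midostaurin cells. Libraries numbered 1 were the highest in both groups, and the groups overlapped almost fully. Phc1 had 57.9, 59.6 and 59.0 CPM in DMSO cells and 60.2, 56.3 and 62.6 CPM in midostaurin cells, again overlapping. Per kilobase of exon, which allows genes to be compared, Phc2 stood at 33.0 ± 4.87 CPM per kb, Phc1 at 11.1 ± 0.16 and Phc3 at 1.07 ± 0.08 in DMSO cells (SD, n = 3). Of the summed PHC level per kilobase, Phc3 made up 2.40% ± 0.38 in DMSO cells and 8.08% ± 1.54 in midostaurin cells (SD, n = 3). Phc2 made up 72.8% and 68.6%, and Phc1 24.8% and 23.4%. Phc3 therefore stayed the least abundant paralog per kilobase after treatment. With the longest protein-coding transcript as the length its share in treated cells was 7.82%, and with raw counts it was 18.8%, because the exons of Phc3 add up to 17485 bases against 7064 in Phc2 and 5297 in Phc1. In tumors the Phc3 share ran from 0.718% in midostaurin tumor 4 to 7.02% in midostaurin tumor 2.

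In tumors Phc2 had 173, 167 and 198 CPM with vehicle and 147, 131 and 160 CPM with midostaurin. All treated tumors were below all vehicle tumors, and Phc2 was the only one of the 8 tested members whose tumor groups did not overlap. The difference was -0.29 ± 0.11 on the log2 scale (SE) and did not pass the test (edgeR adjusted p = 0.211, DESeq2 adjusted p = 0.156). In the tumor comparison, groups of 3 did not overlap for 27.2% of the 16094 genes tested, so 1 of 8 members is near or under that background. Skin, muscle and red cell markers, as a sum, also did not overlap: 1272, 678 and 287 CPM with vehicle and 11.4, 105 and 36.2 CPM with midostaurin. This sum mixes Hbb-bs, at 676 CPM in vehicle tumor 1 but overlapping between groups, with Krt14, at 503 CPM in vehicle tumor 2. Of the 29 markers taken singly, 3 did not overlap (10.3%, 1 higher and 2 lower with midostaurin), beside 27.2% of all genes. The 2 lower were Cdx2 and the macrophage receptor Csf1r. Csf1r was at 158, 115 and 155 CPM with vehicle and at 39.6, 107 and 97.1 CPM with midostaurin. Dcn was higher, at 98.2, 89.8 and 41.3 CPM with vehicle and 103, 218 and 152 CPM with midostaurin. The part of these markers in the tumor values of Phc2 and the other members was not tested. Phc1 overlapped between the tumor groups, with 39.3 ± 4.46 and 38.5 ± 3.77 CPM.

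Neither gene of the catalytic pair passed the test for treatment. Rnf2 (RING1B), the main ubiquitin ligase of PRC1, had 50.4, 51.2 and 61.6 CPM in DMSO cells and 51.4, 54.2 and 57.5 CPM in midostaurin cells. Its tumor values were 44.2, 54.9 and 48.4 CPM with vehicle and 49.8, 53.8 and 52.8 CPM with midostaurin. Ring1, its paralog, was 28.4 ± 3.49 and 29.0 ± 5.23 CPM in cells and 30.2 ± 2.70 and 31.9 ± 1.77 CPM in tumors (SD, n = 3 each, control given before drug). For both genes the ranges of the groups overlapped in each experiment. Per kilobase, Rnf2 made up 60.0% ± 4.85 of the RING pair in DMSO cells and 56.0% ± 4.11 in vehicle tumors. With the longest protein-coding transcript as the length these shares were 54.9% ± 5.00 and 50.8% ± 4.19. The transcripts of Rnf2 share 109 words of 50 bases with those of Trmt1l on the opposite strand, and the strand setting of the counting is not given in the sources used here.

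Bmi1, the PCGF subunit that stimulates the ligase, was the steadiest member. It had 132, 128 and 123 CPM in DMSO cells and 129, 133 and 122 CPM in midostaurin cells. Tumor values were 125, 127 and 123 CPM with vehicle and 132, 113 and 138 CPM with midostaurin. The treated tumors thus spread more widely than the vehicle tumors around nearly the same mean. Per kilobase, Bmi1 was 77.3% ± 0.64 of the canonical PCGF pair in DMSO cells, with Pcgf2 (MEL18) as the remaining 22.7%. The processed model Gm5946 shares 650 of the 50-base words of Bmi1 and had 0 to 24 counts per library.

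The CBX readers differed in level, and none passed the test for treatment. Cbx7 was 110 ± 7.97 and 107 ± 8.64 CPM in cells without and with the drug, and 52.8 ± 5.11 and 56.7 ± 2.67 CPM in tumors (SD, n = 3 each). Cbx2 had 16.9, 15.6 and 19.0 CPM in DMSO cells and 16.8, 14.9 and 18.6 CPM in midostaurin cells. In tumors Cbx2 was 22.9, 22.2 and 27.6 CPM with vehicle and 21.2, 14.1 and 25.6 CPM with midostaurin, with midostaurin tumor 3 the lowest. Cbx8 was the least abundant of these readers, at 10.9 ± 0.472 and 10.4 ± 0.591 CPM in cells and 8.95 ± 1.04 and 8.58 ± 2.10 CPM in tumors. Cbx7 shares 51 words of 50 bases with Apobec3 on the opposite strand.

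Ordered by level per kilobase in DMSO cells, the members ran from Phc3 (1.07 CPM per kb) through Cbx8 (2.98), Cbx2 (4.04), Ring1 (8.77), Phc1 (11.1), Rnf2 (13.2), Cbx7 (17.0) and Bmi1 (32.1) to Phc2 (33.0). The SD ranges of Phc2 and Bmi1 overlapped, so their order is not resolved, and those of the other neighbours in this order were separate. With the longest protein-coding transcript as the length, Phc3 was still the lowest (1.71) and Phc2 the highest (59.1), while Phc1 and Ring1 were both at 14.0 CPM per kb. In midostaurin cells Phc3 stood at 3.87 ± 0.389 CPM per kb, above Cbx8 at 2.84 and next to Cbx2 at 3.94 ± 0.44, from which it did not differ beyond the spread. With the longest protein-coding transcript as the length, Phc3 was above Cbx2 in midostaurin cells, at 6.17 ± 0.62 against 4.41 ± 0.49. In vehicle tumors Phc3 again had the lowest mean, at 1.44 ± 0.87 CPM per kb beside Cbx8 at 2.44 ± 0.28. With the longest transcript these were 2.29 ± 1.39 and 2.50 ± 0.29. Their SD ranges overlapped by both lengths, so the order of Phc3 and Cbx8 in vehicle tumors is not resolved.

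**Figure D2:**
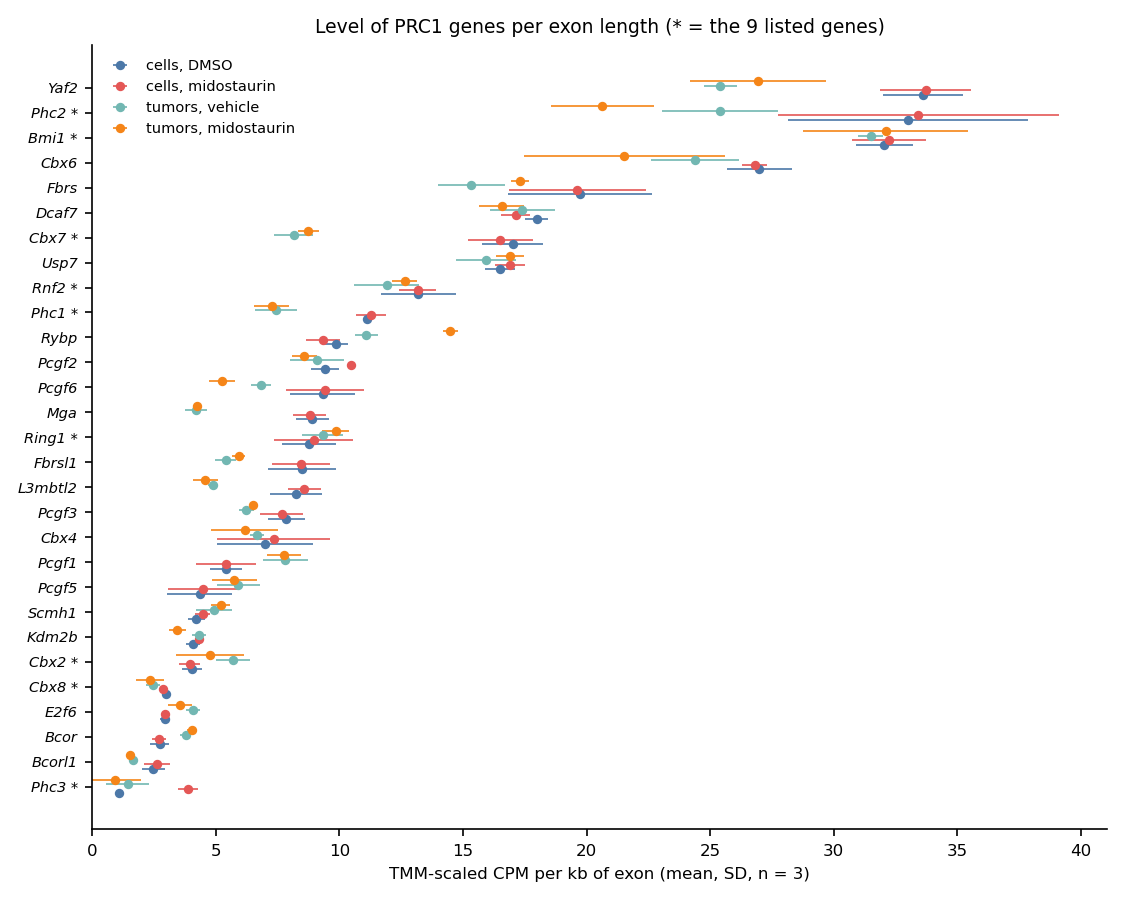
TMM-scaled CPM per kb of exon (horizontal axis, from 0) of the 9 listed PRC1 genes, marked by an asterisk, and of the other PRC1 genes at a comparable level; points are group means and bars the SD (n = 3). Phc3 lies at the bottom with 1.07 CPM per kb in DMSO cells and 3.87 in midostaurin cells, while Cbx7 is at 17.0 in DMSO cells and 8.14 in vehicle tumors.

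Tested against DMSO in cells, 0 of the 8 members other than Phc3 passed an adjusted p of 0.05. Over all 14538 genes edgeR called 0 genes (0% called, 75 genes at an unadjusted p under 0.05). With the replicate number as a block it called 8 (0.055%, 629 genes at an unadjusted p under 0.05). Without the block, differences between replicate numbers count as spread, which makes a call harder, so 0 calls in that fit say little alone. DESeq2, which gave an adjusted p for 25294 genes, called 2 (0.00791%). None of the 8 members was among the calls of any of these fits, and none had an unadjusted p under 0.05 in edgeR. Their log2 fold changes ran from -0.07 for Cbx8 to 0.03 for Ring1, and the lowest adjusted p was 1.00 in edgeR and 0.992 with the block. The 95% intervals of all 8 lay between -0.38 and 0.43. With the block they lay between -0.27 and 0.16, which is a change of -17.1% to 11.7%. Groups did not overlap for 0 of the 8, and for 2.46% of all genes. Without both libraries numbered 1 the fold changes of the 8 members ran from -0.08 for Cbx8 to 0.03 for Bmi1, again with 0 called.

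Tested against vehicle in tumors, 0 of the 8 members passed. edgeR called 7 of 16094 genes (0.0435%) and DESeq2 1213 of 13709 (8.85%), with 0 of the 8 members among either. Log2 fold changes ran from -0.29 for Phc2 to 0.11 for Cbx7, with 95% intervals between -0.78 and 0.46. Cbx2 was at -0.25 ± 0.22 (SE) and ran from -0.44 to -0.034 without single tumors. Over the 8 members the intervals leave room for changes of -41.7% (Cbx2) to 37.6% (Cbx8), so moderate changes could be missed with these tumors. They were narrower for Bmi1 (-12.5% to 19.9%) and Cbx7 (-7.56% to 25.8%). The interaction, which is the tumor response minus the cell response, was -0.32 to 0.14 for the 8 members with a lowest adjusted p of 0.89 in edgeR, where 1 of 16965 genes passed (0.00589%). DESeq2 called 76 of 21379 genes for this difference (0.355%), with 0 of the 8 members among them, and the lowest adjusted p with the block in cells was 0.282.

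**Figure D3:**
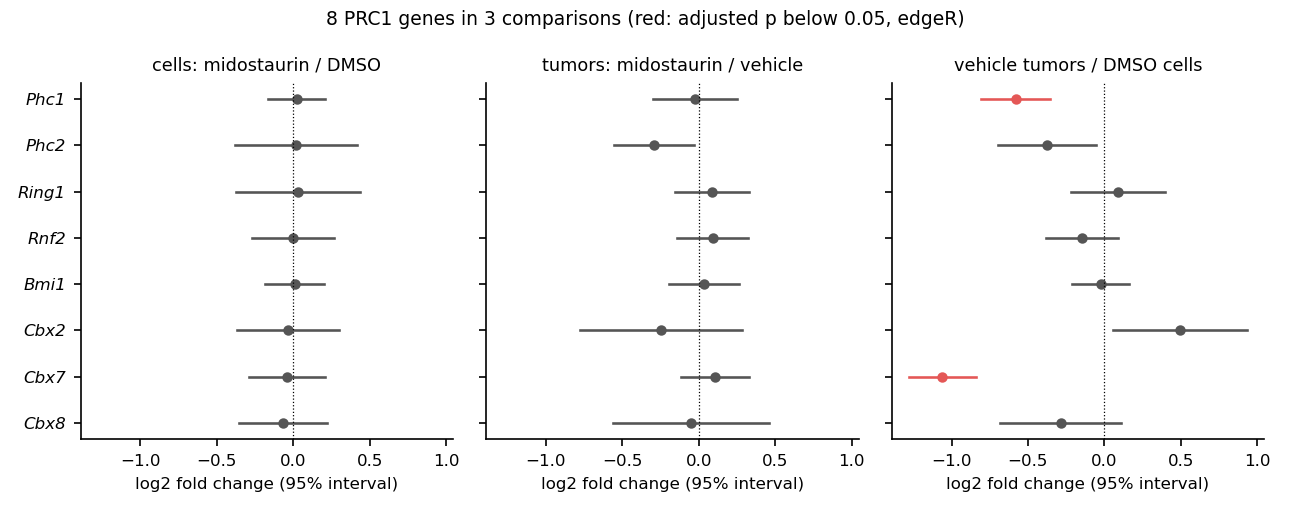
Log2 fold change (horizontal axis) and 95% interval of the 8 PRC1 genes other than Phc3 in 3 comparisons, from edgeR; red marks an adjusted p below 0.05. Points in cells lie between -0.07 and 0.03 and in tumors between -0.29 and 0.11, and only Phc1 and Cbx7 are red, in the comparison of vehicle tumors with DMSO cells.

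The levels of the members in untreated tumors and untreated cells are a comparison on which they were not chosen, although tissue and experiment cannot be told apart in it. Cbx7 was lower in the tumors: 49.3, 58.7 and 50.4 CPM against 101, 116 and 113 CPM in DMSO cells. The groups did not come near each other, with a log2 fold change of -1.06 ± 0.10 (SE, edgeR adjusted p = 3.03e-05). Phc1 was lower too, at 44.5, 36.9 and 36.7 CPM against 57.9 to 59.6 CPM, a log2 fold change of -0.58 ± 0.10 (edgeR adjusted p = 0.00117). Phc2 was lower without overlap but did not pass, at -0.38 ± 0.14 (edgeR adjusted p = 0.0562). Without DMSO cell library 2, or without midostaurin cell library 1, which enters through the shared spread, Phc2 passed with an adjusted p of 0.0493 and 0.0298. Cbx2 was 22.2 to 27.6 CPM in vehicle tumors and 15.6 to 19.0 CPM in DMSO cells. Its log2 fold change of 0.50 ± 0.20 passed in some fits and not in others (edgeR adjusted p = 0.0631, DESeq2 adjusted p = 0.0417, edgeR with the block adjusted p = 0.0393). In this comparison the block fit held only the control libraries and matched cells to tumors by number. Nothing in the labels links those numbers, so that matching is arbitrary.

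Cbx8 was -0.29 (edgeR adjusted p = 0.214), Rnf2 -0.15, Ring1 0.09 and Bmi1 -0.02, none of which passed. In all, 2 of the 8 members were called lower and 0 higher. Of 16965 genes, edgeR called 44.2%, with 19.7% lower and 24.5% higher, while DESeq2 called 40.4% of 20271 and the fit with a block over the control libraries 34.7% of 15899. The share of members called lower, 2 of 8, is thus near the background. Groups did not overlap for 1 member in the higher and 4 in the lower direction, against 54.8% of all genes in either. The summed immune markers and the summed stromal and endothelial markers were higher in tumors, in the ranges given above. Not every marker was: Pdgfra was at 27.6 ± 10.6 CPM in DMSO cells and 27.9 ± 4.23 CPM in vehicle tumors (SD, n = 3 each). The part of these markers in the differences of the members was not tested. Without both cell libraries numbered 1 the calls for Cbx7 and Phc1 kept their direction and passed, at -1.11 and -0.58.

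As a share of the 5 canonical CBX genes per kilobase, Cbx7 went from 29.3% ± 1.80 in DMSO cells to 17.2% ± 2.05 in vehicle tumors (SD, n = 3 each). Cbx2 went from 6.97% ± 0.80 to 12.0% ± 0.96. The ranges did not overlap for either. Cbx6 was the largest part, at 46.5% ± 1.60 and 51.5% ± 2.05.

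The wider Polycomb machinery was read from lists that do not overlap the 9 members: 22 other PRC1 genes, 13 PRC2 genes, 11 genes of H2A deubiquitination and 35 genes that Polycomb is known to repress. In cells, 0 of the tested genes passed in each list, with 20, 12, 11 and 14 genes tested. Of the 20 other PRC1 genes tested, 1 had groups that did not overlap, beside 2.46% of all genes. This was Pcgf2, at 33.2 ± 2.01 CPM with DMSO and 36.8 ± 0.367 CPM with midostaurin (log2 fold change 0.15 ± 0.09, edgeR adjusted p = 1.00). Among PRC2 genes the smallest p belonged to Lcor, a corepressor whose locus also makes a PRC2 accessory protein (-0.11 ± 0.16). The median log2 fold change of the repressed genes was -0.0091, beside 0.0025 over all genes. Gata4 and Hoxa10, developmental transcription factors, were among the genes with the smallest p of that list, with log2 fold changes of -0.14 and -0.11.

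In tumors 0 of the tested genes passed in edgeR in each list, with 21, 13, 11 and 22 tested. Rybp, which takes the place of CBX proteins in variant PRC1, was the nearest, at 52.5 ± 2.25 CPM with vehicle and 68.7 ± 1.42 CPM with midostaurin (SD, n = 3 each). Its groups did not overlap, as for 27.2% of all genes, with a log2 fold change of 0.39 ± 0.07 (edgeR adjusted p = 0.0841, DESeq2 adjusted p = 0.00545). Pcgf6 and Kdm2b, which also belong to variant complexes, were lower without overlap at -0.37 ± 0.10 and -0.33 ± 0.10 (edgeR adjusted p = 0.135 and 0.158). Among PRC2 genes Phf1 was 0.44 ± 0.15, Ezh2, the methyltransferase, 0.24 ± 0.08, and Epop -0.92 ± 0.39, with edgeR adjusted p of 0.189, 0.193 and 0.247. The deubiquitination genes with the smallest p were Asxl2 at 0.33, Mysm1 at 0.34 and Mbd5 at 0.24. Of the repressed genes, Cdkn2b, a cell cycle inhibitor, had 27, 38 and 35 counts with vehicle and 10, 16 and 19 with midostaurin, and did not pass (-1.12 ± 0.37, edgeR adjusted p = 0.174). Hoxc6 at 0.31 and Pax6 at -0.43 did not pass either.

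Between vehicle tumors and DMSO cells the lists moved in both directions. The background for each list is the 24.5% of all genes called higher and the 19.7% called lower. Of 21 other PRC1 genes 4 were higher and 8 lower, with a median of -0.05, beside a median of 0.04 over all genes. Mga, a subunit of the PCGF6 complex, fell by 1.08 on the log2 scale (SE 0.10, edgeR adjusted p = 2.73e-05), and L3mbtl2 and Fbrsl1 fell by 0.75 and 0.65. With the block over the control libraries, whose matching by number is arbitrary, 7 of the 21 were called, and also 7 without DMSO cell library 3. PRC2 genes split 3 and 3 of 13 (3 in all without DMSO cell library 3): Lcor and Suz12, a core subunit, fell by 1.20 and 0.40. Epop had 0 counts in all cell libraries and 95, 57 and 48 in vehicle tumors, at least 20.4-fold higher against a floor of 3 counts per library. Epop, and 1 of the 4 other PRC1 genes called higher, had at most 3 counts in every cell library and passed the filter through the tumors. Of 11 deubiquitination genes 4 were lower and 0 higher, beside 19.7% and 24.5% of all genes, among them Asxl2 (-0.82), Mbd5 (-0.84) and Mysm1 (-0.72).

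Of the 35 Polycomb-repressed genes, 22 passed the filter on low counts, and 7 of these had at most 3 counts in every cell library. Those 7 could pass only through the tumors and were all called higher, a direction that the filter fixes. Of the other 15, 2 were called higher and 3 lower, beside 24.5% and 19.7% of all genes. Hoxc6 fell by 0.93 on the log2 scale (SE 0.12, edgeR adjusted p = 0.000177). Cdkn2b had 0 counts in all cell libraries and was at least 10.2-fold higher in vehicle tumors against the same floor. Sox17, an endothelial and endoderm factor, was at least 20.1-fold higher, with 0 counts in cells and 100, 26 and 76 in vehicle tumors. Cdkn2a, chosen for naming after its values were seen because Bmi1 is known to repress it, had 0 counts in all 6 cell libraries, 51, 26 and 66 in vehicle tumors and 14, 4 and 37 in midostaurin tumors. For Cdkn2a and Cdkn2b, counts of 0 cannot tell a repressed gene from one missing in the line, and repression was not tested. The endothelial markers Pecam1 and Cdh5 had 849 to 1776 and 619 to 1521 counts in vehicle tumors and at most 13 and 4 in cells, and their part in these differences was not tested.

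**Figure D4:**
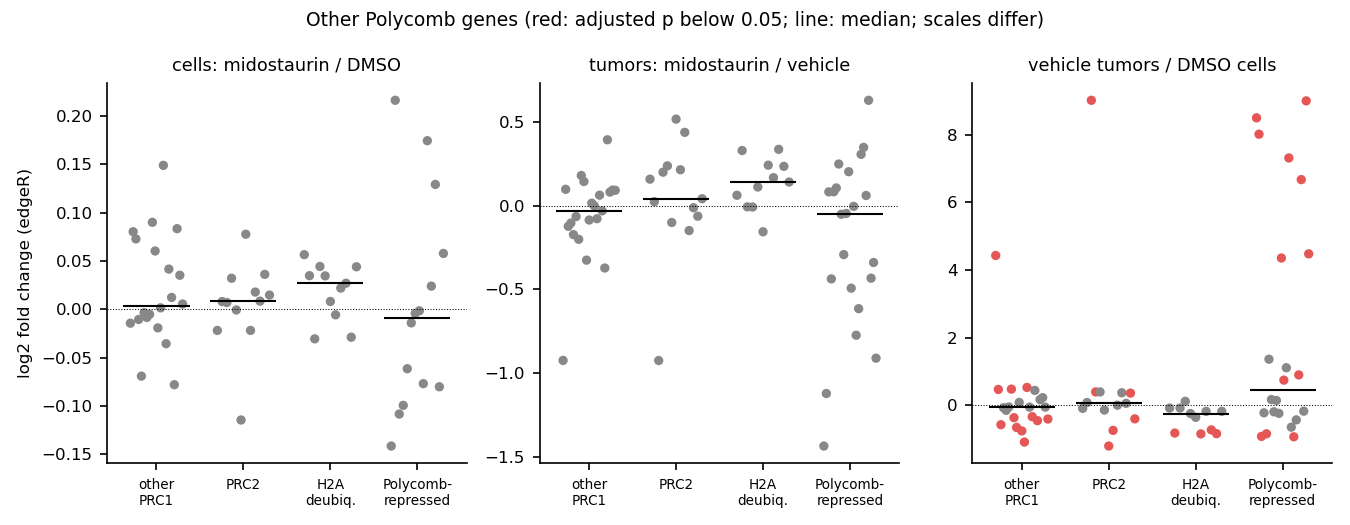
Log2 fold change from edgeR (vertical axis, scale differing between panels) of each tested gene of 4 Polycomb lists in 3 comparisons; the line is the list's median and red an adjusted p below 0.05. Red points appear only in the comparison of vehicle tumors with DMSO cells, in both directions for 3 of the lists and only downward for H2A deubiquitination.

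The genes whose profile over the 12 libraries was most like that of Phc3 were sought among 10248 genes with a mean of at least 5 CPM, by Pearson correlation of log2(CPM + 0.5). The libraries share group, tissue and experiment, so the values carry no p. Cpeb4, which binds cytoplasmic polyadenylation elements, was highest with r = 0.80. The likeness of Cpeb4 came from the tumors (r = 0.94 over 6) more than from the cells (r = 0.18 over 6): it had 543, 48 and 438 counts in vehicle tumors and 735, 114 and 71 in midostaurin tumors. The tumors with high and low Cpeb4 were those with high and low Phc3. In cells Cpeb4 had 968 to 1499 counts with DMSO and 934 to 1629 with midostaurin, and so did not share the difference between cell groups. Tmem267 and Rpap1 followed at r = 0.77, then Fam53a and Mapkap1 at 0.76, all with a far smaller range than Phc3.

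Most opposite were Ubp1, a CP2 family transcription factor, at r = -0.88 and Anapc10, a subunit of the anaphase-promoting complex, at -0.86. Rrnad1 at -0.79 and Bbs9 at -0.78 came next. Ubp1 ran from 83.3 CPM in midostaurin cell library 1 to 103 CPM in midostaurin tumor 3, a narrow range beside that of Phc3. No other listed PRC1 gene was among the genes named here as most or least like Phc3.

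**Figure D5:**
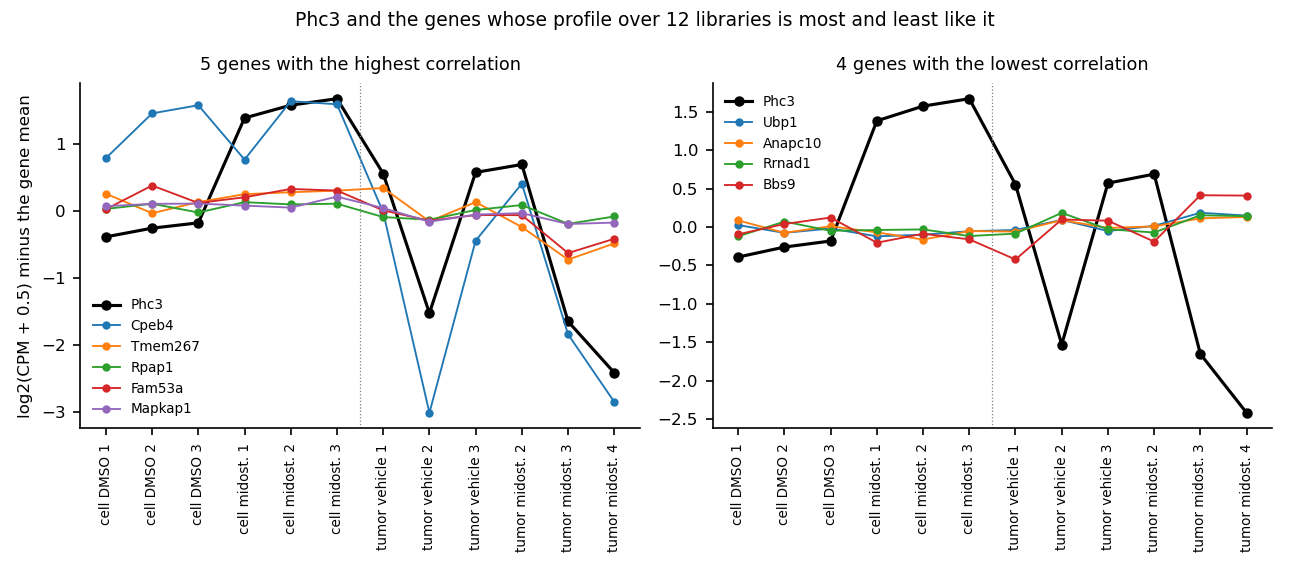
Log2(CPM + 0.5) minus the mean of the gene (vertical axis) in the 12 libraries (horizontal axis, lines only join the points of a gene) for Phc3 in black and, in colors, the 5 genes with the highest and the 4 with the lowest correlation with it. Cpeb4 shares the tumor split (r = 0.94 over 6 tumors) but not the difference between cell groups, and the other genes vary far less than Phc3.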

How the data were processed

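Cells and tumors each have a table of read counts, deposited by the authors as whole numbers for every gene and made from directional poly(A) libraries per the labels' protocols. The submitters' processing notes name RSEM, Bowtie2 2.3.4, FastQC 0.11.2 and the mm10 genome. Annotation and strand setting are not given in the sources used here, and rounding of RSEM estimates cannot be told from whole counts. Symbols were found for 99.7% of identifiers. All columns were used. The treated tumor column numbered 4 has no such number in the labels, and the treated tumor labelled 1 matches no column by name.

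The counts were tested with edgeR 4.0.16 in R 4.3.3 (filterByExpr, TMM, quasi-likelihood F-test, Benjamini-Hochberg over all genes, threshold 0.05). Cells and tumors were fitted separately, and the interaction and the untreated comparison over all 12 libraries. DESeq2 1.42.0, RLE scaling, no filter, a replicate block and leaving out libraries were alternatives. The scripts were tested on simulated data. Pairing of the cell libraries by number rests on the counts, not on the labels: deviations of same-numbered libraries correlated at 0.814, 0.558 and 0.562, and those of numbers 2 and 3 with each other at 0.437 and 0.412, so the values mainly set number 1 apart. Members and lists were chosen with earlier results of these data known. Named genes were the members, up to 3 genes of smallest p per list and comparison, and the 5 most and 5 least like Phc3, leaving out Gm and Rik symbols. Some genes this rule selects are not reported here.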

Additional observations from a re-analysis of the deposited data

How the results depend on the processing

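The counts of genes called over the whole table moved most. In cells, 0 genes became 2 with DESeq2, 8 with the replicate block and 1 without replicate 1 of both groups, with 0 to 1 over all fits that left out libraries. In tumors, 7 became 0 without the filter, 1213 with DESeq2, 0 with the block over the 2 shared numbers and 0 to 1 without single tumors. The tumor fit with the block held only the tumors whose number occurs in both groups, and left out the others. For the difference of the responses, 1 became 76 with DESeq2, 16 with the block in cells, and 0 to 6 when libraries were left out. The members called stayed at 0 of 8 in cells, tumors and the difference in all of these. The block moved Rnf2 in cells from -0.0027 to 0.0012 (log2), not called before or after. In the tumor fit with the block, Bmi1 went from 0.034 to -0.037, also not called before or after. Cbx2 went from -0.25 to -0.52 in that fit (adjusted p = 0.591 in edgeR). The shared tumor numbers correlated at only 0.105 and -0.18. As that fit also left out tumors, the part of the block in the moves of Bmi1 and Cbx2 was not tested. The Phc3 share in midostaurin cells was 8.08% per kilobase and 18.8% of raw counts.

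Leaving out libraries turned the sign of small log2 fold changes that were never called. In cells Phc1 ran from -0.014 to 0.062, Phc2 from -0.13 to 0.14, Ring1 from -0.13 to 0.14, Rnf2 from -0.055 to 0.098, Bmi1 from -0.021 to 0.044, Cbx2 from -0.12 to 0.048 and Cbx7 from -0.10 to 0.019. Without replicate 1 of both groups Phc2 was at -0.00497 and Ring1 at -0.019. In tumors Phc1 ran from -0.093 to 0.078, Bmi1 from -0.022 to 0.13 and Cbx8 from -0.20 to 0.14. In untreated tumors against cells Bmi1 ran from -0.051 to 0.0020 without single libraries and was 0.0090 without replicate 1 of both cell groups. The cause of these moves was not tested. In that comparison Cbx2, at 0.50, passed with DESeq2 (0.52) and without midostaurin tumor 3 or 4. It also passed with the block (0.49), which matched control cells to control tumors by unrelated numbers. Cbx7 and Phc1 kept their calls in all fits.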
